A study of Rattus norvegicus with 16 samples.

Results

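The comparison set 5 arrays of rat brain after middle cerebral artery occlusion (MCAo) with saline against 5 arrays of normal control brain, 10 of the 16 arrays of the series. The arrays were taken by their labels alone. The 6 remaining arrays were of occluded rats given intravenous human umbilical mesenchymal stem cells. They entered the shared estimate of spread, the filter for signal above background and the choice of the brightest probe per gene. A gene seen only after occlusion could thus pass the filter through saline or stem cell arrays, and a gene seen only in controls through control arrays alone. Each array carried RNA of 1 sample in 1 colour. All rats were 8 weeks old and brain was taken at 72 h, a time that the series counts from the occlusion. The normal controls had no occlusion. The labels used here give no sham-operated group, strain, sex, hemisphere, brain region, infarct size or time of the saline dose. Effects of surgery, anaesthesia and saline therefore cannot be told apart from those of the occlusion. The labels do not say that each array came from a separate animal, so p-values measure the spread between these samples, which may in part be technical.

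Occlusion of the middle cerebral artery starves the striatum and the overlying cortex of blood and is the usual rodent model of ischaemic stroke. Over the following days, resident microglia and leukocytes that enter from the blood take up dead cells and myelin, break them down in lysosomes, and release oxidants, cytokines and lipid mediators. Astrocytes and vascular cells divide and form a border around the lesion, while surviving neurons lose part of their synaptic and channel gene expression. The gene lists cover recognition and engulfment, digestion, signalling, movement, growth and energy use, and then neurons, glia and their transcription factors. They hold 1027 genes in 42 groups, of which 930 were measured.

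Markers of brain were at high levels on every array. Levels are log2 signal minus the array's own 75th percentile, so a level of 0 is the 75th percentile probe of that array. General neuron markers (Snap25, Syt1, Stmn2, Eno2, Nefl, Uchl1) had mean levels of 3.78 to 3.90 in controls and 3.36 to 3.81 with occlusion, and 2 of 6 fell. Striatal markers lay at -1.23 to -0.99 in controls and -2.77 to -1.63 with occlusion, and 5 of 7 fell. Cortical markers lay at -1.06 to -0.86 and -1.41 to -0.96 (2 of 6 fell). Cerebellar markers ranged from -2.38 to 0.27 among the controls themselves and from -2.59 to -1.16 with occlusion, with 2 of 7 lower. Olfactory bulb markers had 1 of 4 lower, and no hippocampal, thalamic or hypothalamic marker passed the test (0 of 4, 0 of 4 and 0 of 6). The part of the cerebellar differences in the results was not tested.

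Among cell types, microglial markers, such as P2ry12, Tmem119 and Cx3cr1, lay at 0.57 to 0.79 in controls and 0.93 to 1.51 with occlusion, and 3 of 5 rose. The list named monocytes and macrophages from blood (Ccr2, Cd163, Mrc1, Plac8, Ly6c) went from between -5.92 and -5.33 to between -5.27 and -3.28, with 3 of 5 higher. Those called were Cd163, Mrc1 and Plac8 (log2 changes 1.92, 1.65 and 1.84). Ccr2 and Ly6c (0.79 and 0.95) did not pass in limma (adjusted p = 0.143 and 0.185). Whether the cells behind these signals came from blood was not tested. T and NK cell markers went from between -5.52 and -5.41 to between -5.01 and -3.82 (3 of 7 rose), and neutrophil markers from between -5.19 and -3.63 to between -4.13 and -3.03 (1 of 4 rose). Red blood cell markers overlapped, at 1.14 to 4.28 and 0.95 to 3.34 (0 of 5 called), although the labels name a blood RNA kit with removal of globin transcripts. Of fibroblast and meningeal markers 2 of 7 rose, of astrocyte markers 1 of 4 rose, of ependymal markers 1 of 4 rose, and of oligodendrocyte markers 2 of 5 fell. Beside 14.3% higher and 13% lower of all genes tested, 1 or 2 calls in so short a list show little about a cell type. B cell, mast cell, endothelial, pericyte and choroid plexus markers had 0 of 2, 0 of 2, 0 of 5, 0 of 5 and 0 of 6 called. In whole tissue, fewer cells of a type and less RNA per cell cannot be told apart, and this holds for every list.

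Of 20471 genes tested, 14.3% were higher with occlusion (2924 genes) and 13% were lower (2657 genes) at a Benjamini-Hochberg adjusted p of 0.05 in limma. The directions differed in size. At least 2-fold rises numbered 913 (4.46% of genes tested) and at least 2-fold falls 47 (0.23%), and with normexp, a background correction that adds an offset to the signal, 502 and 24. Of the rises, 204 lay between 2 and 3 on the log2 scale, 57 between 3 and 4, and 22 above 4, whereas 4 falls lay between 2 and 3 and none beyond. Of the falls, 2017 of 2657 were smaller than 0.5. The 2 groups did not overlap, with saline above, at 9.85% of genes tested, and with saline below at 8.55%. All 5 saline arrays lay outside the control range in 1874 of the 2924 rises and 1459 of the 2657 falls. Where a called gene had further measured probes, 333 of 357 other probes of risen genes and 402 of 439 of fallen genes had the same sign. Of the called genes 52.4% were higher, but 32.7% were with median scaling, which moves the median change of all genes from -0.04 to -0.11. Each of 2 slides held both groups: a block for slide gave 3432 higher and 3209 lower genes, within slide 1 (3 arrays a group) 2079 and 973, and within slide 2 (2 arrays a group) 0 and 1, with 2455 at an unadjusted p under 0.05. Without control arrays 1 to 5 in turn the lower genes numbered 1676, 1700, 1543, 1767 and 1711, without saline arrays 2, 3 and 4 they numbered 1154, 1259 and 1283, and without saline array 5 there were 3990. At least 2-fold falls numbered 82, 29 and 100 without saline arrays 1, 4 and 5.

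Saline arrays 2, 3 and 4 stood farther from the controls than saline arrays 1 and 5. Over the 913 genes at least 2-fold higher, the median difference from the control mean was 2.16, 2.14 and 2.04 in saline arrays 2, 3 and 4, against 1.07 in array 1 and 0.63 in array 5. Over the 47 genes at least 2-fold lower, the medians were -1.56, -1.72 and -1.71 against -0.74 and -0.61. Across the 25 lists with more rises than falls, the list mean lay above all controls for 23, 25, 24, 24 and 21 lists in saline arrays 1 to 5. Across the 13 lists with more falls than rises it lay below all controls for 12, 13, 13, 13 and 5 lists. The lists that saline array 5 did not place below all controls were transmitter release, where it lay above them, and, within the control range, respiration, calcium channels, ion pumps, neuronal cytoskeleton, neurotrophic factors, astrocyte homeostasis and clock genes. Arrays 1 and 5 carry the same label as the others, and the results below include them. Without both, a choice made after their levels were known, 4992 genes were lower and 1373 and 231 were at least 2-fold higher and lower.

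**Figure D1:**
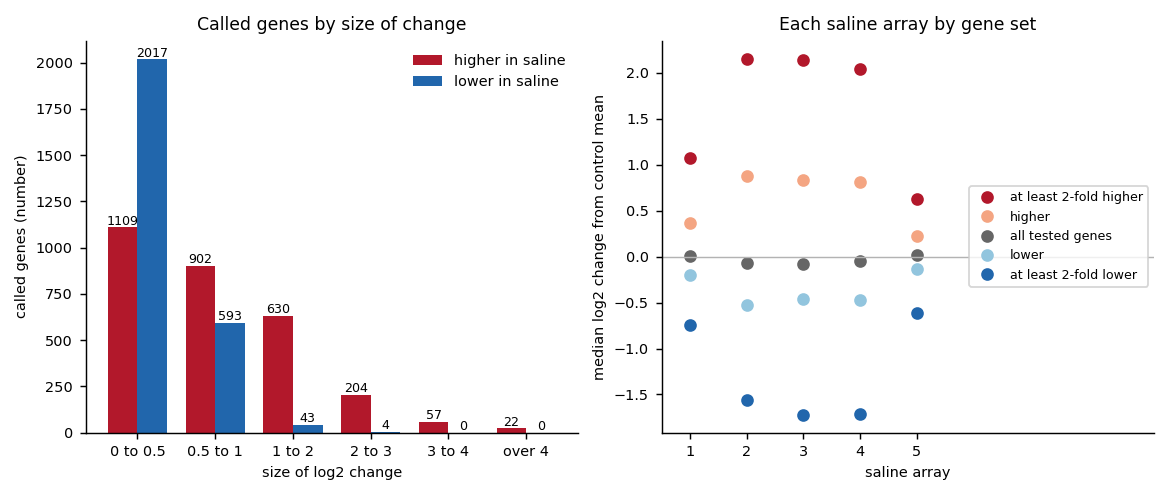
Left: number of called genes by size class of the log2 change (x axis, classes from 0 to above 4), with rises and falls as separate bars. Right: median log2 difference of each saline array (x axis, arrays 1 to 5) from the control mean over called gene sets and all tested genes (y axis); for the 913 genes at least 2-fold higher, arrays 2, 3 and 4 lie at 2.04 to 2.16 and arrays 1 and 5 at 1.07 and 0.63.

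The largest rises included secreted and surface proteins of phagocytes, monocyte chemokines and the imprinted transcript H19. Gpnmb, a transmembrane glycoprotein of lipid-laden phagocytes, lay at -1.51, -1.77, -1.72, -1.76 and -1.76 in control arrays 1 to 5 and at 2.54, 4.36, 4.66, 4.38 and 1.30 in saline arrays 1 to 5. Every saline array was above every control, arrays 2, 3 and 4 by most, for a log2 change of 5.15 (SE 0.50, adjusted p = 7.58e-05 in limma). Its promoter, 250 bases up to the gene start at chr4:79340878-79341127 on the plus strand of GRCr8 (RefSeq), is shown because it holds a motif of the AP-1 factors, pairs of Fos, Jun and related proteins. The capitals mark TGAGTCA, the opposite strand of the AP-1 motif TGACTCA, whose first base lies 87 bases before the start.
Gpnmb: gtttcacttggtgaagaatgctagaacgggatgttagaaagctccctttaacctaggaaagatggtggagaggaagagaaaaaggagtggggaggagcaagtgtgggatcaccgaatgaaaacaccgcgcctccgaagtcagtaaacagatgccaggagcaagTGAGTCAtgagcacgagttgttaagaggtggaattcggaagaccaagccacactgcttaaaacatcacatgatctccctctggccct
Of 544 genes at least 2-fold higher with a promoter sequence (250 bases before to 50 after the start), 34 (6.25%) held this AP-1 motif on either strand, against 386 of 10286 tested genes (3.75%). A match is a description of the letters only.

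The monocyte chemokine Ccl7 lay at -6.77, -7.26, -7.09, -8.09 and -7.52 in controls and at -4.41, -0.37, -1.74, -0.0014 and -3.88 with occlusion. The groups did not overlap, and the change was 5.26 ± 0.72 (log2 ± SE, the form used from here on; adjusted p = 0.000402), with 1 of 5 control arrays well above background. Lilrb4, an inhibitory receptor of myeloid cells, changed by 5.17 ± 0.46, also with 1 of 5 controls above background, and H19 by 4.97 ± 0.62. Lilrb4 and Gpnmb were also among the 12 rises with the largest test statistic, which scales a change by its spread. Further ones were Clec12a, an inhibitory lectin receptor of myeloid cells (3.79 ± 0.41, adjusted p = 0.00018), Tifab, an adaptor of innate signalling (1.61 ± 0.17, adjusted p = 0.000119), and Pimreg, a protein of dividing cells (3.89 ± 0.42, adjusted p = 0.000179). Clec12a lay at -3.14, -2.92, -3.39, -3.09 and -3.09 in controls and at 0.17, 1.45, 1.58, 1.28 and -1.15 with occlusion. The centromeric histone Cenpa was at least 9.53-fold higher (adjusted p = 0.000119) and Gpr65, an acid-sensing receptor of leukocytes, at least 6.04-fold higher (adjusted p = 0.00018), since no control array showed either above background. For every gene given such a bound, the p rests on control values below background, and the gene entered the test through the arrays where it is high. The same limit holds in large part for genes with 1 of 5 controls above background: Ccl7 and Lilrb4, and Cybb, Fabp4 and Plau below. Their changes, SE and p rest mostly on control values below background. A lower bound sets the saline mean against the dimmest signal well above background on each control array. After normexp background correction, whose offset of 50 shrinks the changes of dim genes, the values were 2.92 for Ccl7, 2.14 for Lilrb4, 3.93 for H19, 2.52 for Pimreg, 1.25 for Cenpa and 0.90 for Gpr65, all past the test.

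The falls were smaller, and Casr, Egr1 and Lamp5 were among the 12 largest by size with groups that did not overlap. Casr, the calcium-sensing receptor, lay at -1.54, -1.47, -1.65, -1.50 and -1.53 in controls and at -2.38, -3.21, -3.82, -3.25 and -2.27 with occlusion (change -1.45 ± 0.28, adjusted p = 0.00298). Egr1, a zinc finger factor induced by neuronal firing, lay at 1.21, 1.72, 1.39, 1.31 and 1.36 in controls and at 0.81, -1.34, -0.62, -0.81 and 0.75 with occlusion (-1.64 ± 0.43, adjusted p = 0.0133). All 5 saline arrays were below the controls for both genes, and arrays 1 and 5 were the nearest. Lamp5, a membrane protein of forebrain neurons, fell by 1.36 ± 0.33 (adjusted p = 0.00978). Serinc5, Syndig1l, Prom1 and Sc5d were among the 12 falls with the largest test statistic. Serinc5, a lipid carrier of myelin-forming glia, lay at 1.91, 1.71, 1.81, 1.80 and 1.71 in controls and at 1.26, 1.31, 1.33, 1.07 and 1.25 with occlusion (-0.54 ± 0.06, adjusted p = 0.00022), so that saline arrays 1 and 5 did not stand apart from the others. Syndig1l, a striatal membrane protein, fell by 1.23 ± 0.15 (adjusted p = 0.000287). The stem cell glycoprotein Prom1 (-0.54 ± 0.07, adjusted p = 0.000312) was also even, at 1.31 to 1.66 in controls and at 0.90, 0.87, 0.95, 1.04 and 1.04 in saline arrays 1 to 5. Sc5d, an enzyme of cholesterol synthesis, fell by 0.49 ± 0.07 (adjusted p = 0.000434).

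**Figure D2:**
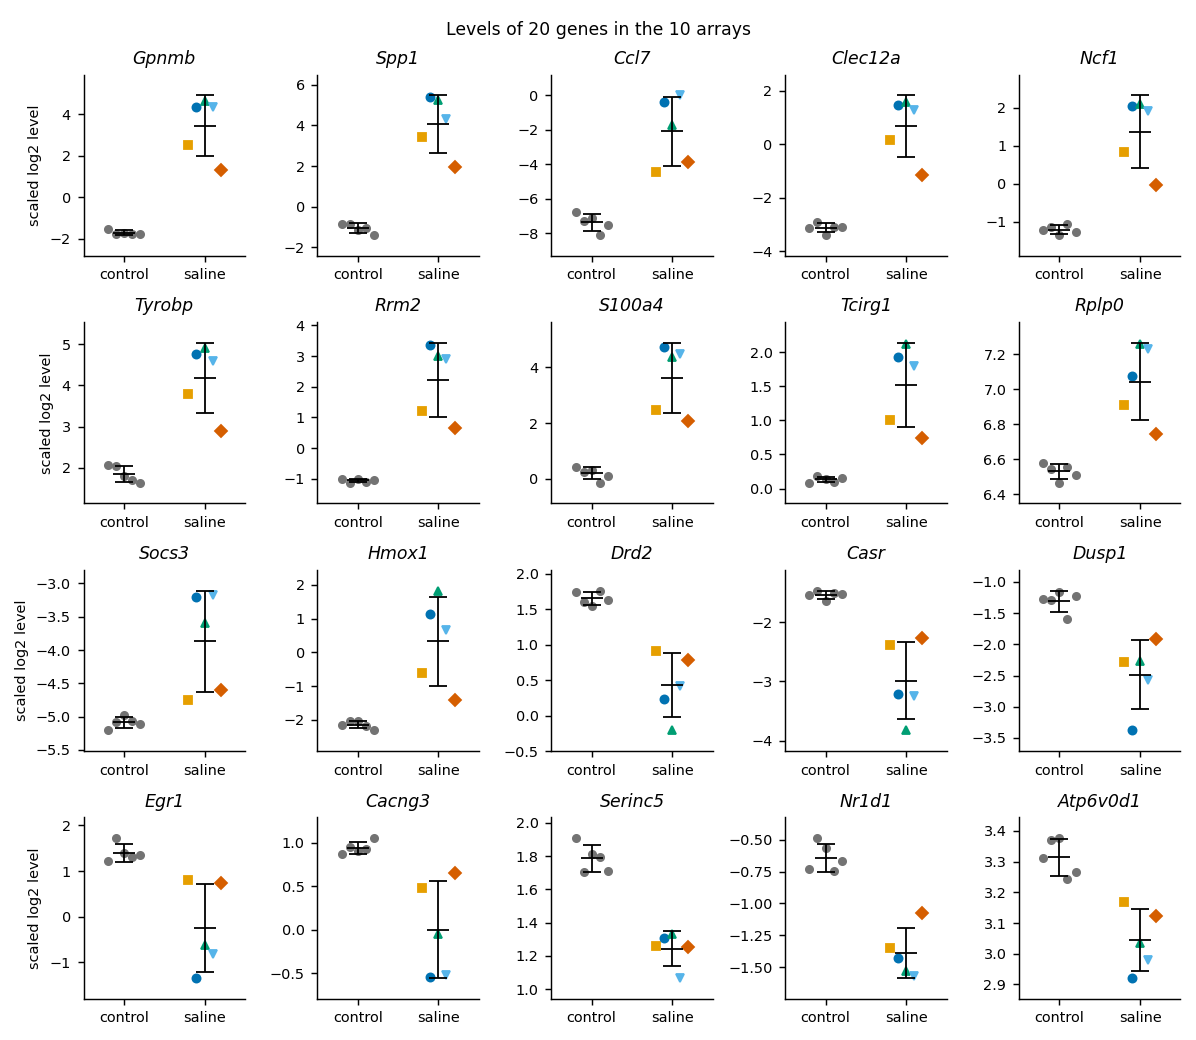
Level of 20 genes on each array (y axis, log2 signal minus the array's 75th percentile), with the 5 control arrays as grey dots and saline arrays 1 to 5 as square, circle, upward triangle, downward triangle and diamond; bars give mean ± SD (n = 5). Gpnmb rises from between -1.77 and -1.51 to between 1.30 and 4.66, whereas Serinc5 falls from between 1.71 and 1.91 to between 1.07 and 1.33.

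Receptors for antibody-coated and damaged material rose as a body. All 21 measured genes of Fc receptors, their adaptors with immunoreceptor tyrosine-based activation motifs, and the kinases behind them rose, with a median change of 1.99, against 14.3% of all genes tested. Tyrobp, the adaptor that carries the signal of Trem2 and other receptors, lay at 2.07, 2.05, 1.80, 1.70 and 1.64 in controls and at 3.79, 4.76, 4.89, 4.58 and 2.88 with occlusion. No saline array reached down to the controls, and the change was 2.33 ± 0.30 (adjusted p = 0.000332). Fcgr3a, a receptor for immunoglobulin G, rose by 2.55 ± 0.35 (adjusted p = 0.000402), Vav1, an exchange factor downstream of such receptors, by 2.47 ± 0.34 (1.57 with normexp), and the adaptor Blnk by 1.81 ± 0.19. Clec7a (dectin-1), a receptor for fungal glucans that phagocytes also carry after injury, was at least 14.6-fold higher (adjusted p = 7.58e-05; log2 change 1.81 with normexp) and no control array showed it above background.

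Sensors of microbial and damage signals also rose, their downstream factor less evenly. Of 16 Toll-like receptor genes, co-receptors and adaptors, 13 rose (median 1.07). Cd14, the co-receptor of Tlr4, lay at -3.26, -3.07, -3.33, -3.50 and -3.52 in controls and at -1.38, 0.91, 0.46, 0.52 and -1.99 with occlusion (3.04 ± 0.46, adjusted p = 0.000807), with no overlap. The lipopolysaccharide-binding protein Lbp rose by 2.49 ± 0.56 (1.32 with normexp) and Tlr2, a receptor for bacterial lipopeptides, by 1.59 ± 0.29. Of 13 genes of NF-kB, the transcription factor those receptors switch on, 4 rose with a list median of 0.19. These were Bcl3 (2.82 ± 0.42, adjusted p = 0.000744), a nuclear co-factor, Nfkb2 (0.82 ± 0.19), a precursor of its subunits, the kinase Ikbke (0.77 ± 0.15) and the inhibitor of cell death Birc3 (1.29 ± 0.37, adjusted p = 0.02). Without control array 4 or saline array 2, 3 or 4, Birc3 did not pass (adjusted p = 0.0502 to 0.0582). The subunit Rela and the inhibitor Nfkbia changed by 0.09 and 0.19 and did not pass (adjusted p = 0.53 and 0.376). Bcl3 lay at -3.35, -3.55, -2.91, -3.74 and -3.65 in controls and at -1.78, 0.46, -0.02, 0.19 and -1.97 with occlusion, so the groups did not overlap.

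Lineage transcription factors of myeloid cells rose in 13 of 17 (median 1.12), among them Spi1 (PU.1), the master regulator of the lineage, by 1.97 ± 0.31 (1.23 with normexp), Irf8, needed by microglia and monocytes, by 1.66 ± 0.28 (0.79 with normexp), and Batf by 2.82 ± 0.44 (1.59 with normexp, 2 of 5 controls above background). By the calls with all arrays, the phagocyte oxidase, which makes superoxide, stood apart from the enzymes of nitric oxide and arginine. Of 12 genes on that list, 5 rose and all 5 belong to the oxidase: the membrane subunits Cybb (2.76 ± 0.38, adjusted p = 0.000421) and Cyba (2.00 ± 0.33), the cytosolic subunits Ncf1 (2.58 ± 0.33) and Ncf4 (2.39 ± 0.35), and its activator Rac2 (2.53 ± 0.30). Ncf1 lay at -1.22, -1.13, -1.34, -1.05 and -1.28 in controls and at 0.83, 2.06, 2.11, 1.93 and -0.04 with occlusion, with no overlap. The nitric oxide synthases Nos1, Nos2 and Nos3 had changes of 0.29, -0.09 and 0.51 (adjusted p = 0.257, 0.597 and 0.0502), the arginases Arg1 and Arg2 of 0.53 and -0.12 (adjusted p = 0.254 and 0.459), and Sod2 of -0.01 (adjusted p = 0.94). Of the 7 members that did not pass, not all are given here. Nos3 passed in limma with a block for replicate number (adjusted p = 0.0374). Without saline arrays 1 and 5, 7 genes of the list rose, and Nos1 (0.61, adjusted p = 0.00285) and Nos3 (0.67, adjusted p = 0.0171) passed. Cybb was well above background on 1 of 5 controls and changed by 1.14 with normexp. The promoter of Cybb is shown for an interferon-response motif, GTTTCNNTT, found as AAAGGAAAC on the printed strand with its first base 50 bases before the start. It lies at chrX:16065066-16065315 on the minus strand of GRCr8 (RefSeq), and capitals mark the motif.
Cybb: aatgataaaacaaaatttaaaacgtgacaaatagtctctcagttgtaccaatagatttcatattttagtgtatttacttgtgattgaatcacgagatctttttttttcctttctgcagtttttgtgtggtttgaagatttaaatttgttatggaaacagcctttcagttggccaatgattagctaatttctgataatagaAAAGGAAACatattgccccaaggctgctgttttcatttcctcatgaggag
Cyba, Cybb and Ncf1 held this motif, 3 of the 7 oxidase and nitric oxide genes with a promoter sequence, against 5.16% of tested genes and 61 of 544 genes (11.2%) at least 2-fold higher.

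Enzymes of digestion rose while most of the pump that acidifies the lysosome did not. Of 29 lysosomal genes 22 rose and none fell (median 0.56). The cathepsins Ctsz (2.27 ± 0.35, adjusted p = 0.00082) and Ctsc (2.03 ± 0.38), which trim proteins, progranulin (Grn, 1.70 ± 0.26) and legumain (Lgmn, 1.35 ± 0.28) rose most. Ctsd, the main aspartic protease of lysosomes, lay at 4.57, 4.57, 4.54, 4.51 and 4.46 in controls and at 5.57, 6.14, 6.42, 5.97 and 5.01 with occlusion (1.29 ± 0.20, adjusted p = 0.000807), above all controls in every saline array. The 2 most abundant members that did not pass were prosaposin (Psap, 0.01, adjusted p = 0.93) and Lamp1 (0.14, adjusted p = 0.305). Of 17 subunits of the vacuolar proton pump, 2 rose and 7 fell (median -0.19), and 11 fell with median scaling, 4 with normexp and 1 within slide 1. Tcirg1, the membrane subunit of osteoclasts and macrophages, lay at 0.09, 0.19, 0.15, 0.10 and 0.15 in controls and at 1.00, 1.94, 2.13, 1.81 and 0.74 with occlusion (1.39 ± 0.24, adjusted p = 0.00171). Atp6v0d1, a subunit found in all cells, fell by 0.27 ± 0.06 (adjusted p = 0.00553). The 7 falls of the pump became 4, 3, 3, 1 and 2 without control arrays 1 to 5 in turn and 1 without saline array 2, 3 or 4, and the other rise, Atp6v0e1 (0.57 ± 0.17, adjusted p = 0.0237), was lost without control array 5 or saline array 2, 3 or 4 (adjusted p = 0.0554 to 0.0662).

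The promoter of Ctsd is shown for the CLEAR motif GTCACGTG of the lysosomal factor TFEB, present as CACGTGAC with first bases 157 and 10 bases before the start. It lies at chr1:206968822-206969071 on the minus strand of GRCr8 (RefSeq), with the motifs in capitals.
Ctsd: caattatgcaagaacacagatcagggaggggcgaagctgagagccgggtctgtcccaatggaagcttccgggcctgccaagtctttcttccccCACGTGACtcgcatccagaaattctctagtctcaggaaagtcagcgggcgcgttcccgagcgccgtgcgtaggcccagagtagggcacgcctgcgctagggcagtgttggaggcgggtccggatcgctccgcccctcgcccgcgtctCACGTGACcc
Of 22 lysosomal genes with a promoter sequence, Ctsd, Gaa, Glb1 and Lamp1 held the motif (18.2%), against 3.44% of tested genes and 2.57% of genes at least 2-fold higher (14 of 544). Gaa (-0.17, adjusted p = 0.112) and Lamp1 did not pass the test.

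Lipid uptake and storage rose in 14 of 21 genes (median 0.68), and none fell. Fabp4, a fatty acid carrier of macrophages and fat cells, lay at -8.36, -7.47, -8.41, -8.44 and -7.96 in controls, where 1 array was above background, and at -4.29, -1.23, -0.25, -1.75 and -5.11 with occlusion (5.60 ± 0.76, 2.79 with normexp). The scavenger receptor Msr1 was at least 12.9-fold higher (adjusted p = 0.00301; 1.70 with normexp), and Olr1, a receptor for oxidised lipoprotein, rose by 3.24 ± 0.40 (1.58 with normexp). Plin2, the coat of lipid droplets, rose by 2.23 ± 0.42 (adjusted p = 0.00283): its controls lay at -1.28 to -0.90 and the saline arrays at 0.18, 1.86, 2.28, 1.94 and -0.36. Apolipoprotein E (Apoe), the main lipid carrier of brain, had a change of 0.11 (adjusted p = 0.279).

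Genes of iron and haem handling rose in 12 of 24 and fell in 1 (median 0.24), or in 3 with median scaling. Haem oxygenase Hmox1, which opens haem and frees its iron, had 5 saline arrays at -0.61, 1.15, 1.83, 0.65 and -1.40 above controls at -2.31 to -2.04. The constitutive form Hmox2 fell by 0.27 ± 0.06 (adjusted p = 0.00741). The haem carrier haemopexin (Hpx) was at least 5.13-fold higher (adjusted p = 0.000291; 0.80 with normexp), not above background on any control, and the haemoglobin scavenger receptor Cd163 rose by 1.92 ± 0.54 (adjusted p = 0.018) but not without saline array 3 or 4 (adjusted p = 0.0511 to 0.0532). Of these genes 7 rose without saline array 4 and 2 fell without saline array 5.

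**Figure D3:**
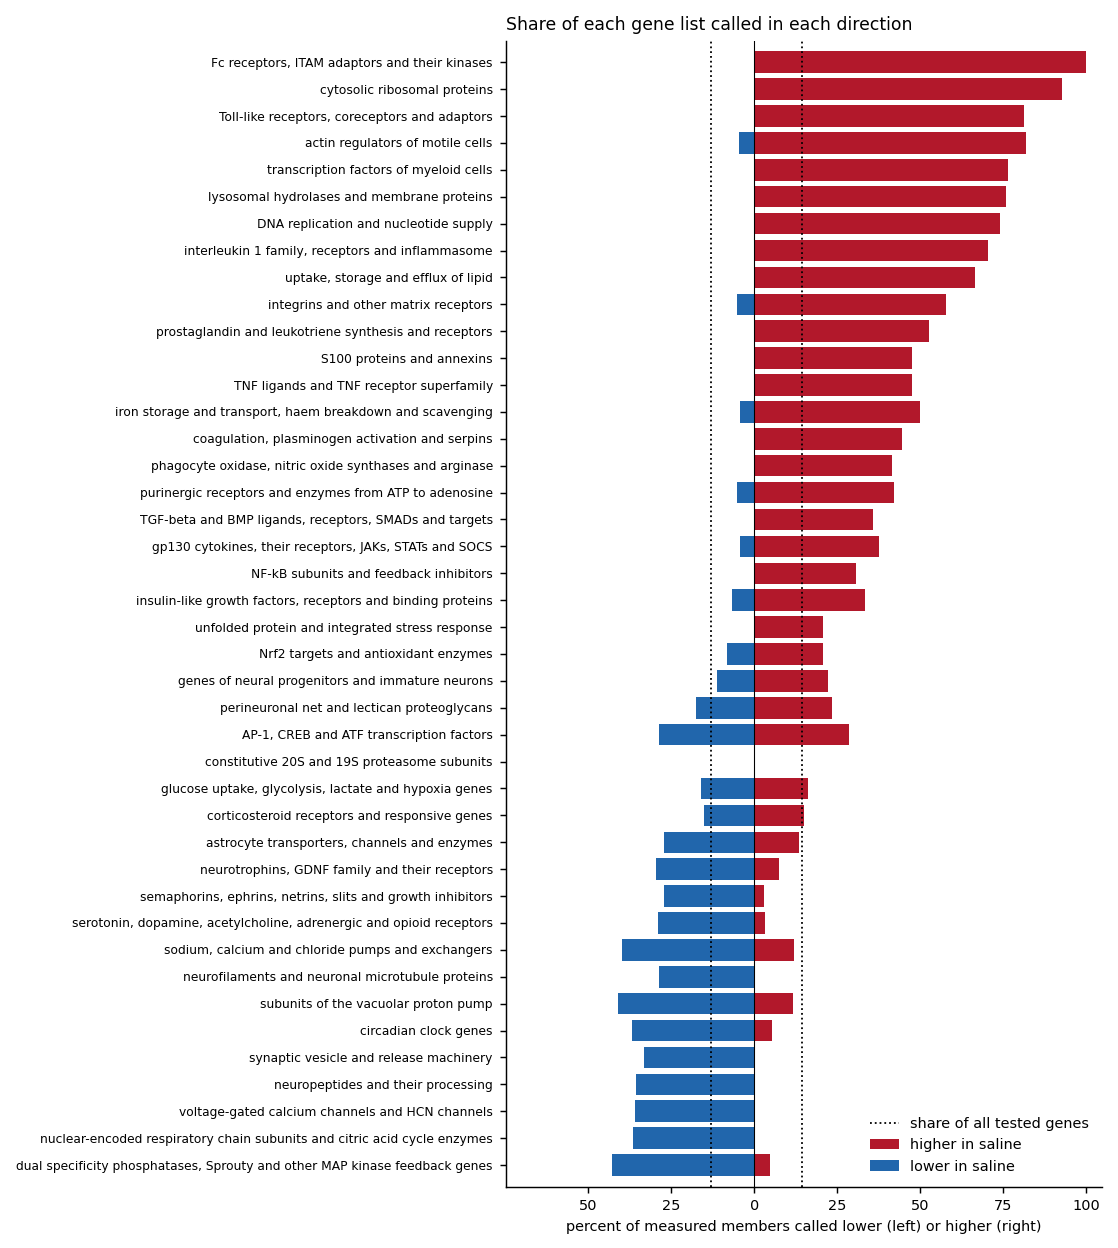
Share of measured members of each of the 42 lists that rose or fell (x axis, percent; bars to the right for rises, to the left for falls), with the background shares of 14.3% and 13% of all genes tested as lines. Fc receptor signalling stands at 21 of 21 higher and the proteasome at 0 of 24 in either direction.

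Signals between cells rose in part. In the interleukin 1 family and its processing machinery 12 of 17 rose (median 1.20). Pycard, the adaptor of inflammasomes, lay at -2.51, -2.04, -2.18, -2.36 and -2.55 in controls and at -0.44, 0.43, 0.40, 0.22 and -1.31 with occlusion (2.19 ± 0.29, adjusted p = 0.000374). The cytokines Il1a and Il1b rose by 1.65 ± 0.34 and 2.05 ± 0.36 (0.85 and 1.00 with normexp), and the receptor for interleukin 33, Il1rl1, was at least 3.45-fold higher (adjusted p = 0.017), a call lost with normexp (adjusted p = 0.096). In the tumour necrosis factor family 10 of 21 rose (median 0.18), and 6 within slide 1. The receptors Tnfrsf1b, Cd40 and Tnfrsf1a rose by 1.77 ± 0.37, 1.55 ± 0.26 and 1.42 ± 0.27, and the death receptor Fas was at least 2.91-fold higher (adjusted p = 0.00591; 0.43 with normexp). Cd40, which receives help from T cells, lay at -3.31 to -2.88 in controls and at -1.996, -0.96, -0.85, -1.32 and -2.40 with occlusion.

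In cytokine signalling through JAK and STAT proteins 9 of 24 rose and 1 fell (median 0.21), and 5 rose within slide 1. Stat3, the factor behind interleukin 6 family signals, lay at -0.29, -0.26, -0.37, -0.27 and -0.29 in controls and at 0.10, 0.79, 0.53, 1.13 and 0.12 with occlusion (0.83 ± 0.16, adjusted p = 0.0034). Its feedback inhibitor Socs3 rose by 1.22 ± 0.30 (adjusted p = 0.0103) and the leukocyte kinase Jak3 by 1.31 ± 0.26. The single fall, the receptor Cntfr (-0.37 ± 0.10), was lost without saline array 2 (adjusted p = 0.0504), where none fell, and 2 fell without saline array 5.

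Of 19 genes of prostaglandins and leukotrienes 10 rose (median 0.68). Thromboxane synthase Tbxas1 lay at -2.66, -2.72, -2.28, -2.03 and -2.93 in controls and at -0.40, 0.38, 0.80, 0.49 and -1.22 with occlusion (2.53 ± 0.32, adjusted p = 0.000298). The lipoxygenase Alox12 was at least 4.22-fold higher (adjusted p = 0.000312; 0.70 with normexp) and the prostaglandin D synthase of blood cells, Hpgds, rose by 1.40 ± 0.34. The inducible cyclooxygenase Ptgs2 had a change of 0.17 (adjusted p = 0.515). Of 19 purinergic genes 8 rose and 1 fell (median 0.32), or 3 with median scaling. P2ry6, the uridine diphosphate receptor that triggers engulfment by microglia, lay at -1.24 to -1.07 in controls and at 0.36, 1.104, 1.20, 1.19 and -0.16 with occlusion (1.89 ± 0.23, adjusted p = 0.000275). Enzymes that remove extracellular ATP and adenosine rose, Entpd1 by 1.20 ± 0.27 and Ada by 1.23 ± 0.25, and the single fall was Adora2a, a striatal marker. The purinergic rises numbered 5 without control array 2, 4 or 5 or saline array 2 and 4 without saline array 3, and 2 genes fell without saline array 1 or 5.

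Movement and attachment rose broadly. Of 22 genes of actin-based motility 18 rose and 1 fell (median 1.31). The actin capping protein Capg lay at -1.80, -2.30, -2.34, -2.07 and -1.99 in controls and at 0.34, 2.21, 2.13, 2.13 and -0.25 with occlusion (3.41 ± 0.43, adjusted p = 0.000291). The leukocyte myosins Myo1f and Myo1g rose by 2.69 ± 0.35 and 2.63 ± 0.38, and the neuronal and leukocyte protein Evl fell by 0.25 ± 0.07 (adjusted p = 0.0135). Of 21 S100 proteins and annexins, which bind calcium, 10 rose (median 0.70): S100a4 by 3.43 ± 0.43, S100a11 by 2.75 ± 0.45, S100a6 by 2.08 ± 0.39 and Anxa1 by 2.00 ± 0.37. The astrocyte member S100b had a change of -0.39 (adjusted p = 0.0526). Of 19 integrins and other matrix receptors 11 rose and 1 fell (median 0.60). The hyaluronan receptor Cd44 lay at -2.61 to -2.46 in controls and at -1.12, 0.82, 0.44, 0.69 and -1.39 with occlusion (2.43 ± 0.39, adjusted p = 0.00104). The leukocyte integrin Itgal was at least 5.82-fold higher (adjusted p = 0.000338; 0.89 with normexp), the fibronectin receptor subunit Itga5 rose by 2.36 ± 0.39 (1.09 with normexp), and Itgb6, an epithelial subunit that activates TGF-beta, fell by 0.64 ± 0.13 (adjusted p = 0.00486).

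Of 18 genes of coagulation and fibrinolysis 8 rose (median 0.70). Urokinase Plau, which activates plasminogen at cell surfaces, lay at -7.10, -7.19, -7.55, -7.82 and -7.26 in controls, 1 of them above background, and at -3.44, -1.24, -1.31, -2.63 and -5.66 with occlusion (4.53 ± 0.62, 2.32 with normexp). The tissue activator Plat had a change of 0.06 (adjusted p = 0.764). In TGF-beta and bone morphogenetic protein signalling 10 of 28 rose (median 0.25), including the ligand Tgfb1 (1.60 ± 0.25, adjusted p = 0.000886) and its receptor Tgfbr1 (1.39 ± 0.20). Tgfb1 lay at -4.25 to -3.84 in controls and at -2.78, -1.82, -2.06, -1.99 and -3.35 with occlusion. In the insulin-like growth factor system 5 of 15 rose and 1 fell (median 0.17), and 2 rose within slide 1. Igf1 lay at 1.28, 0.95, 0.97, 0.84 and 0.93 in controls and at 2.32, 3.54, 3.78, 3.25 and 1.36 with occlusion, above all controls in every saline array, and its receptor Igf1r had a change of 0.12 (adjusted p = 0.228). The 5 rises of this system became 3, 2, 1, 3 and 2 without control arrays 1 to 5 in turn and 2, 2 and 1 without saline arrays 2, 3 and 4. Its fall, Irs2 (-0.37 ± 0.11, adjusted p = 0.0259), was lost without control array 1 or 2 or saline array 2, 3 or 4 (adjusted p = 0.0547 to 0.0742), and 2 genes fell without saline array 1 or 5.

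**Figure D4:**
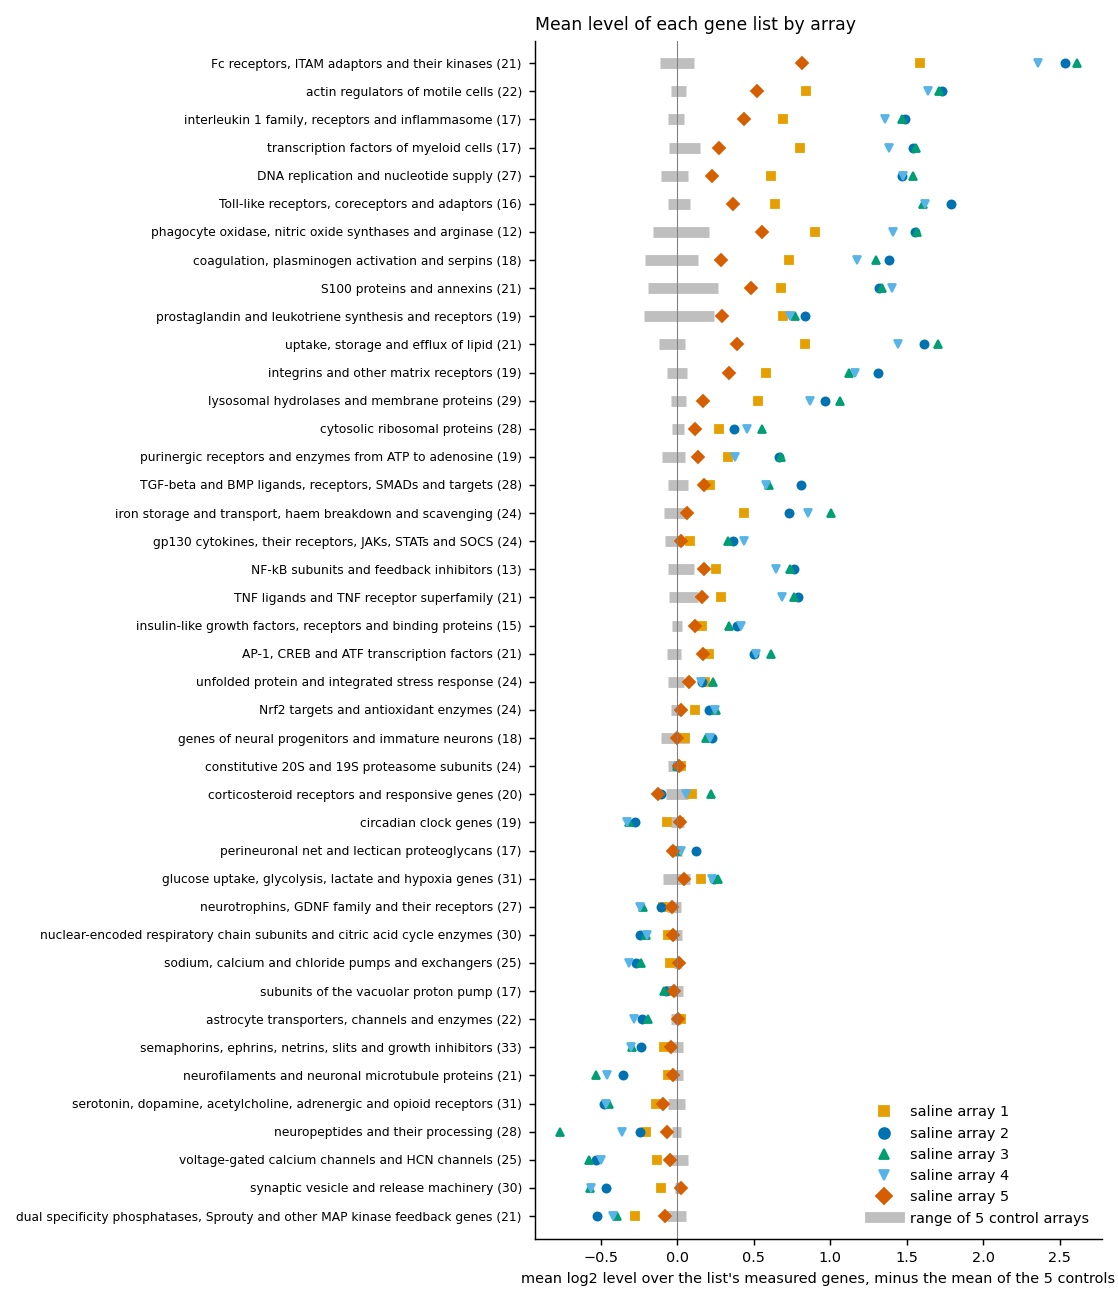
Mean level of each list on each saline array minus the control mean (x axis, log2), with the range of the 5 control arrays as a grey bar and saline arrays 1 to 5 as separate marks. Saline arrays 1 and 5 lie closest to the control range in most lists, and array 5 lies inside it for 13 of 42 lists.

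Most genes that copy DNA rose. Of 27 replication genes 20 rose and none fell (median 1.12). Rrm2, the regulated subunit of ribonucleotide reductase, which makes deoxynucleotides, lay at -0.996, -1.13, -1.01, -1.11 and -1.04 in controls and at 1.21, 3.35, 2.99, 2.89 and 0.64 with occlusion (3.27 ± 0.42, adjusted p = 0.000308). Saline arrays 2 to 4 stood highest and no array overlapped the controls. Mcm3, of the replicative helicase, rose by 2.43 ± 0.39 and thymidine kinase Tk1 by 2.08 ± 0.33, while the constitutive subunit Rrm1 had a change of 0.04 (adjusted p = 0.953). Thymidylate synthase Tyms lay at -4.33 to -4.14 in controls and at -3.35, -2.42, -2.46, -2.66 and -3.79 with occlusion (1.28 ± 0.25, adjusted p = 0.00339). Its promoter is shown for the E2F motif TTTGGCGC, first base 37 bases before the start, at chr9:120776084-120776333 on the minus strand of GRCr8 (RefSeq), with the motif in capitals.
Tyms: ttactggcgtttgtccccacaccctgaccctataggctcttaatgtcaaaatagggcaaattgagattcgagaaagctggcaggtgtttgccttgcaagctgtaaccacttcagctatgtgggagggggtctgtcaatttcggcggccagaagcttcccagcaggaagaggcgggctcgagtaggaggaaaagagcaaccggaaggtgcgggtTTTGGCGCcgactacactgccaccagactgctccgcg
Of 24 replication genes with a promoter sequence 9 (37.5%) held TTTGGCGC or TTTCCCGC on either strand, against 2.62% of tested genes. Among genes at least 2-fold higher the share was 3.12% (17 of 544).

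Protein synthesis and breakdown moved differently. Of 28 cytosolic ribosomal proteins 26 rose, all by little (changes of 0.14 to 0.61 over the list, median 0.33), and with median scaling 20 rose and within slide 1 there were 17. Rplp0, of the ribosomal stalk, lay at 6.58, 6.55, 6.47, 6.55 and 6.51 in controls and at 6.91, 7.08, 7.26, 7.23 and 6.74 with occlusion (0.51 ± 0.09, adjusted p = 0.00151), with no overlap. Ribosomal protein genes have many processed pseudogenes, and their share in these signals was not tested. None of 24 constitutive proteasome subunits passed in limma (changes -0.20 to 0.17, median 0.01, adjusted p from 0.154 for Psma2 to 0.991 for Psmd12), of which 0 had an unadjusted p under 0.05. Of 24 chaperones and sensors of stress in the endoplasmic reticulum 5 rose (20.8%, median 0.08). The share of all genes tested was 14.3%, so the count shows little about the list. Risen members included Sdf2l1 (0.96 ± 0.17, adjusted p = 0.00214), Dnajc3 (0.55 ± 0.15) and Atf6 (0.31 ± 0.09), and the central chaperone Hspa5 had a change of 0.24 (adjusted p = 0.103). These rises numbered 3 without saline array 2 or 3, Atf6 among the calls lost (adjusted p = 0.0522 to 0.0589), and Atf6 did not pass with normexp (adjusted p = 0.0895). Of 24 antioxidant targets of the factor Nrf2 5 rose and 2 fell (median 0.03), against 14.3% and 13% of all genes tested. There were 3 rises under median scaling or within slide 1 and 8 with a block for slide. Gpx1, glutathione peroxidase, rose by 1.07 ± 0.22, the gene of the factor itself, Nfe2l2, by 0.67 ± 0.14, and its inhibitor Keap1 fell by 0.25 ± 0.05 (adjusted p = 0.00477). In this group 3 rose without control array 1, 2 or 4 or saline array 3 or 4, and 1 fell without control arrays 1 to 4 or saline array 2, 4 or 5.

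Part of the genes of energy use fell slightly. Of 30 genes of respiration 11 fell and none rose (median -0.16). Ndufs3, of the first respiratory complex, lay at 3.57, 3.56, 3.57, 3.51 and 3.49 in controls and at 3.36, 3.15, 3.14, 3.20 and 3.40 with occlusion (-0.29 ± 0.06, adjusted p = 0.00517), below all controls in every saline array. The 11 falls became 6, 5, 7 and 6 without control arrays 1, 2, 4 and 5 and 4, 3 and 4 without saline arrays 2, 3 and 4. They numbered 18 with median scaling, 6 with normexp and 1 within slide 1. In glycolysis and hypoxia response 5 of 31 rose and 5 fell (median -0.11), near the shares of all genes tested. The falls numbered 11 with median scaling, 2 with normexp and 1 within slide 1, 1, 0, 0, 2 and 1 without control arrays 1 to 5 and 0, 0 and 1 without saline arrays 2, 3 and 4. The rises had larger sizes: Hk3, a hexokinase of myeloid cells, by 4.80 ± 0.64 (2.83 with normexp, 3 of 5 controls above background), the fructose transporter of microglia Slc2a5 by 1.67 ± 0.24 (adjusted p = 0.000503) and the inducible hexokinase Hk2 by 1.51 ± 0.24. Hk2 lay at -5.78 to -4.82 in controls and at -4.34, -3.25, -3.41, -3.53 and -4.51 with occlusion. The neuronal hexokinase Hk1 had a change of -0.13 (adjusted p = 0.352).

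Neuronal lists fell in part of their members, and the counts leaned on saline arrays 2, 3 and 4. Of 30 genes of transmitter release 10 fell (median -0.32), with Rph3a, a vesicle protein bound by Rab3, at -0.76 ± 0.21 (adjusted p = 0.0165). Its count was 4, 3, 2, 3 and 2 without control arrays 1 to 5, 1 without saline array 2, 3 or 4, and 21 without saline array 5. Of 25 calcium and pacemaker channel genes 9 fell and none rose (median -0.32), with 4, 4 and 5 falls without saline arrays 2, 3 and 4. Cacng3, a calcium channel subunit by name only, fell by 0.94 ± 0.23 (adjusted p = 0.0106), Cacna2d3 by 0.70 ± 0.13 and the pacemaker channel Hcn2 by 0.59 ± 0.13. Of 25 ion pumps and exchangers 3 rose and 10 fell (median -0.17). The sodium-calcium exchanger Slc8a2 lay at -1.21, -0.96, -0.96, -1.22 and -1.07 in controls and at -1.75, -2.29, -1.91, -2.36 and -1.41 with occlusion (-0.86 ± 0.18, adjusted p = 0.00413). The sodium pump regulator of neurons, Fxyd7, fell by 0.98 ± 0.26, whereas Fxyd5, a regulator found in epithelia and leukocytes, rose by 1.60 ± 0.26 (adjusted p = 0.00125). The pump rises numbered 1 without control array 1, 3, 4 or 5 or saline array 2, 3 or 4, and the falls 6, 6, 5 and 5 without control arrays 1 to 4 and 4 without saline array 2, 3 or 4. Without saline arrays 1 and 5 the falls were 23 for transmitter release and 18 for calcium channels. With median scaling 20 genes of transmitter release and 14 channels fell, and 1 pump rose. Within slide 1 the falls were 2 for transmitter release and 4 for pumps.

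Of 31 receptors for dopamine, serotonin, acetylcholine, noradrenaline, opioids and cannabinoids 9 fell and 1 rose (median -0.29). Drd2, the dopamine receptor of striatal neurons of the indirect pathway, lay at 1.74, 1.60, 1.55, 1.76 and 1.63 in controls and at 0.91, 0.24, -0.21, 0.42 and 0.79 with occlusion (-1.23 ± 0.25, adjusted p = 0.00388). Drd1, its counterpart of the direct pathway, fell by 1.00 ± 0.22 (-0.52 with normexp), and the striatal muscarinic receptor Chrm4 by 0.87 ± 0.18. Htr2b, a serotonin receptor that microglia and heart carry, was the rise: it lay at -4.48, -5.07, -4.52, -4.14 and -4.17 in controls and at -3.27, -0.89, -1.07, -1.58 and -3.82 with occlusion (2.35 ± 0.47, adjusted p = 0.00349), without overlap. Without saline array 5, and with median scaling, 16 receptors fell. Of 28 neuropeptides and their processing enzymes 10 fell and none rose (median -0.31). The opioid precursor Penk lay at 2.95, 2.89, 2.80, 2.99 and 3.00 in controls and at 2.22, 2.49, 1.16, 2.14 and 2.38 with occlusion (-0.85 ± 0.25, adjusted p = 0.022), lowest in saline array 3. The stress hormone Crh fell by 1.08 ± 0.29 (adjusted p = 0.0143), and somatostatin (Sst), made by cortical interneurons, had a change of -0.05 (adjusted p = 0.863). The peptide falls numbered 6 without control array 1 or saline array 2 and 5 without saline array 3 or 4, and 4 within slide 1. Of 21 genes of the neuronal cytoskeleton 6 fell (median -0.24), among them the motor Kif5a (-0.48 ± 0.11, adjusted p = 0.00654) and the tubulin regulator Stmn4 (-0.53 ± 0.12), and 3 did without saline array 2, 3 or 4 and 1 within slide 1.

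**Figure D5:**
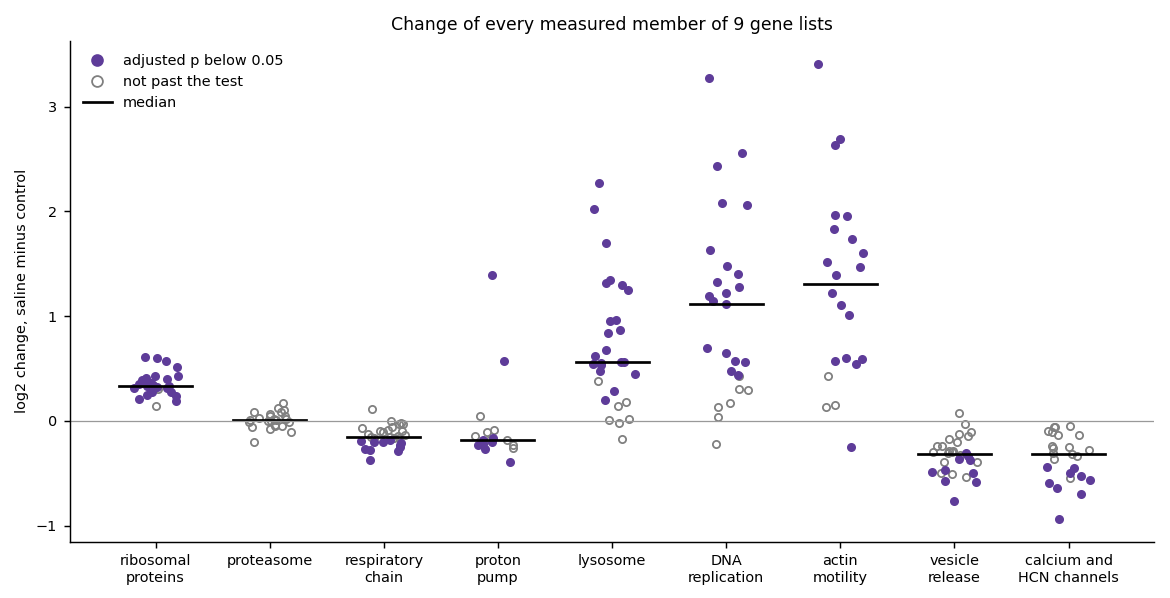
Log2 change, saline minus control (y axis), of every measured member of 9 lists (x axis); filled points passed the test, open points did not, and bars are list medians. Proteasome subunits lie between -0.20 and 0.17, ribosomal proteins between 0.14 and 0.61, and Tcirg1 at 1.39 is the highest proton pump point.

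Guidance and neurotrophic genes held more falls than rises, and their rises were below the share of all genes tested (14.3% higher, 13% lower). Perineuronal net genes had calls in both directions, but few beside those shares. Of 33 axon guidance genes and growth inhibitors 1 rose and 9 fell (median -0.23). The receptor of the myelin inhibitor Nogo, Rtn4r, lay at 0.96, 0.90, 0.87, 0.84 and 0.87 in controls and at 0.54, -0.25, 0.22, -0.05 and 0.71 with occlusion (-0.65 ± 0.17, adjusted p = 0.0136), and Plxnb2, a semaphorin receptor, rose by 0.65 ± 0.14 (adjusted p = 0.00625). The guidance falls numbered 3, 4, 3 and 5 without control arrays 1, 2, 3 and 5 and 4, 4 and 3 without saline arrays 2, 3 and 4, and 2 rose without saline array 1 or 5 or with normexp. The guidance falls numbered 15 with median scaling and 5 within slide 1. Of 27 neurotrophic factors and receptors 2 rose and 8 fell (median -0.13). Sort1, a sorting receptor of neurotrophins, fell by 0.61 ± 0.13 (adjusted p = 0.00571) and Fgf2, a growth factor of astrocytes and vessels, rose by 0.77 ± 0.16 (adjusted p = 0.0046). The neurotrophic rises numbered 1 without control array 1, 3, 4 or 5 or saline array 2, 3 or 4 and 4 without saline array 5, and the falls 5 without control array 3, 4 or 5 and 3, 3 and 4 without saline arrays 2, 3 and 4. Only 1 rose with median scaling or within slide 1, where 3 fell. Of 17 genes of perineuronal nets and lecticans 4 rose and 3 fell (median -0.09): the net core protein aggrecan (Acan) fell by 0.47 ± 0.12 (adjusted p = 0.0111, but 0.228 with normexp), and versican (Vcan) of immature and injured matrix rose by 0.77 ± 0.20 (adjusted p = 0.0121). Falls of this group numbered 1 without control array 3 or 5 or saline array 2, 3 or 4 and 5 without saline array 5. They numbered 6 with median scaling, 5 with a block for slide and 1 within slide 1, where 2 rose.

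Astrocyte transporters did not move as a body. Of 22 genes of astrocyte homeostasis 3 rose and 6 fell (median -0.19), the rises near the 14.3% of all genes tested and the falls above the 13%. Glutamine synthetase (Glul) lay at 3.18, 3.10, 3.13, 3.39 and 3.16 in controls and at 3.49, 3.47, 3.66, 3.69 and 3.55 with occlusion (0.38 ± 0.08, adjusted p = 0.00341), with saline arrays 1 and 5 among the others. The urea transporter Slc14a1 rose by 0.81 ± 0.15 (adjusted p = 0.00207). The falls in the list numbered 3 without control array 1 or 4 or saline array 2, 3 or 4, and 2 within slide 1. The glutamate transporter Slc1a3 had a change of -0.05 (adjusted p = 0.652). In immature neural cells 4 of 18 rose and 2 fell (median 0.02), against 14.3% and 13% of all genes tested, and 1 rose within slide 1. Nestin (Nes), of stem cells and reactive astrocytes, lay at -1.34 to -0.95 in controls and at -0.05, 1.58, 1.46, 1.60 and -0.29 with occlusion (2.02 ± 0.36, adjusted p = 0.00192), while Prom1 and the interneuron factor Dlx5 (-0.70 ± 0.18, adjusted p = 0.0119) fell. These rises numbered 2 without control array 2 or 4 or saline array 2, 3 or 4.

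AP-1 factors and their relatives split evenly, 6 of 21 higher and 6 lower (median 0.09). Junb fell by 0.56 ± 0.10 (adjusted p = 0.00228), Fos by 0.83 ± 0.16, Fosl2 by 0.52 ± 0.12 and Jdp2 by 0.42 ± 0.09, whereas Batf rose by 2.82 ± 0.44, Fosl1 by 2.60 ± 0.49 (1.44 with normexp), Atf3 by 2.42 ± 0.42 and Batf3 by 1.41 ± 0.32 (0.81 with normexp). Atf3, a stress factor of injured neurons and macrophages, lay at -3.91, -3.63, -3.65, -4.01 and -2.81 in controls and at -2.42, -0.62, -0.26, -0.27 and -2.34 with occlusion. The groups did not overlap, although control array 5 came close to saline arrays 1 and 5. Fos overlapped, at -1.33, -1.56, -1.45, -1.996 and -1.54 in controls and -2.41, -2.51, -2.77, -2.42 and -1.88 with occlusion.

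Feedback inhibitors of growth signalling fell in 9 of 21 and rose in 1 (median -0.39). Dusp1, the phosphatase that switches off stress kinases, lay at -1.28, -1.28, -1.16, -1.60 and -1.23 in controls and at -2.28, -3.38, -2.28, -2.57 and -1.92 with occlusion (-1.17 ± 0.22, adjusted p = 0.00266), with no overlap. Its relative Dusp5 fell by 0.69 ± 0.12 (adjusted p = 0.00173), the regulator of G protein signalling Rgs4 by 0.92 ± 0.21, and Ier3 rose by 0.61 ± 0.15 (adjusted p = 0.0119). The promoter of Dusp1 is shown for the cyclic AMP response motif TGACGTCA, first base 124 bases before the start, at chr10:17184603-17184852 on the plus strand of GRCr8 (RefSeq), with the motif in capitals.
Dusp1: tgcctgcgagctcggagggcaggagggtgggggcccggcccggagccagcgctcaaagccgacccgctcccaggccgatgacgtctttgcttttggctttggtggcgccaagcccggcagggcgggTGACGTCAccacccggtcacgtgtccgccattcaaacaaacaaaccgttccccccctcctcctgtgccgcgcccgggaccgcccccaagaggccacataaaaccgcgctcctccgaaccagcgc
Among 33 genes at least 2-fold lower with a promoter sequence 3 held it (Arl4d, Cartpt and Dusp1, 9.09%), among all called lower 66 of 1593 (4.14%), and among tested genes 2.99%. Arl4d was lost as a call without saline array 2 or 4 (adjusted p = 0.0536 to 0.0546), and Cartpt without any 1 control array or saline array 2, 3 or 4 (adjusted p = 0.0562 to 0.127).

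Of 20 glucocorticoid targets 3 rose and 3 fell (median -0.09), near the shares of all genes tested (14.3% and 13%), so the counts show nothing about the list. With median scaling 6 fell, with a block for slide 5 fell, and 5 rose within slide 1. The metallothioneins Mt2A and Mt1, which bind zinc, rose by 1.63 ± 0.34 (adjusted p = 0.0043) and 1.53 ± 0.41, and the receptor co-chaperone Fkbp5 by 0.57 ± 0.13 (adjusted p = 0.00826), but Sgk1 and Tsc22d3 had changes of 0.01 and 0.06 (adjusted p = 0.973 and 0.765). The falls were Dusp1, Arl4d and Klf9 (-0.35 ± 0.12, adjusted p = 0.0457), the last lost without any 1 control array or saline array 2, 3 or 4 (adjusted p = 0.0579 to 0.125). These falls numbered 1 without saline array 2 or 4 and 5 without saline array 5. Of 19 clock genes 1 rose and 7 fell (median -0.09). The repressor Nr1d1 fell by 0.75 ± 0.13 (adjusted p = 0.00199) and the activator Bmal1 by 0.55 ± 0.10 (adjusted p = 0.0019), both of which hold opposite phases of the daily cycle. Cry1 lay at -0.64, -0.61, -0.79, -0.76 and -0.90 in controls and at -0.14, -0.37, -0.60, -0.37 and -0.21 with occlusion (0.40 ± 0.10, adjusted p = 0.0123). The labels used here give no time of day, so its part in these values cannot be told apart from the groups. Clock falls numbered 4, 4 and 2 without control arrays 3, 4 and 5 and 2, 3 and 4 without saline arrays 2, 3 and 4, and 3 within slide 1.

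Among genes often used as references only B2m passed the test with all arrays, which does not make the others stable. With median scaling Gapdh (-0.20, adjusted p = 0.012 in limma) and Hprt1 (-0.28, adjusted p = 0.0195) were lower. Without saline arrays 1 and 5, Gapdh (-0.17, adjusted p = 0.0257), Hprt1 (-0.34, adjusted p = 0.00186) and Actb (0.43, adjusted p = 0.00343) passed. The values with all arrays follow. Gapdh had a change of -0.13 ± 0.05 (adjusted p = 0.0614), Hprt1 of -0.22 (adjusted p = 0.0637), Ppia of 0.05 (adjusted p = 0.582), Tbp of -0.06 (adjusted p = 0.398) and Actb of 0.27 ± 0.11 (adjusted p = 0.0752). B2m, the light chain of class I antigen presentation, rose by 0.69 ± 0.15 (adjusted p = 0.0064).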

How the data were processed

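Total RNA of rat brain was measured on arrays of 1 colour, 10 of 16 used in the comparison. Per the file headers, Agilent Feature Extraction 11.0.1.1 made the processed signal, an intensity with background subtracted and no scaling between arrays, and the median spot and background intensities; the submitters' processing notes write 100.0.1.1. Marks for spots well above background, outliers and saturation are flags, again per the file headers. The series' deposited values, also an intensity, equalled the mean processed signal of a probe's spots (largest relative difference 2.00e-10).

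Each array had 62976 spots, 58717 of them for 30367 non-control probes. The probes well above background were 72.3% to 76.4% on control and 73.0% to 77.6% on saline arrays, and 0 were saturated. The number of arrays limits the precision. Outlier spots were dropped, log2 signals averaged over a probe's spots and scaled by subtracting the 75th percentile of the array. Probes with no usable spot on an array (9) were left out. Unversioned accessions matched 18355 probes to 15443 RefSeq symbols, and 12012 probes had none. Probes well above background on at least 5 of 16 arrays were tested, the brightest per gene by its mean over all 16 arrays, leaving 20471 genes, 12610 with a symbol.

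Group means were fitted over all 16 arrays in limma 3.58.1 (R 4.3.3, data.table version 1.17.8; 13 residual degrees of freedom; two-sided; Benjamini-Hochberg over all genes; threshold 0.05). SE is that of the model, and the spread is pooled over 3 groups. The median SD of a gene was 0.109 in control and 0.209 in saline arrays, a difference that the pooled SE does not show. The scripts were tested on simulated data. Alternatives changed the background correction, scaling, filter, probe rule, array weights, slide, replicate block and arrays. The normexp alternative, with an offset of 50, used median spot signals because no mean signal was used here. Promoter sequences are RefSeq windows of GRCr8, 250 bases before to 50 after the start, matched by symbol to 10286 tested genes. The build of the array design was not used.

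The comparison, the 42 gene lists and 22 marker lists were chosen with earlier results of these data known. Named genes are the 12 largest changes and 12 largest test statistics in each direction among called genes with a symbol, groups that do not overlap and a probe above background on all arrays of whichever group was higher; in each list, at most 4 called members a direction; up to 2 abundant members per list that did not pass; and Actb, Gapdh, Hprt1, Ppia, Tbp and B2m. Named outside that rule, after their values were seen, were Ctsd, Tyms, Cyba, Atf6, Gaa, Rrm1, Rela, Nfkbia, most other oxidase and nitric oxide genes, and members given with values that did not pass. A few listed genes are not reported here by name.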

Additional observations from a re-analysis of the deposited data

Results flagged for a closer look

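Of 436 groups of 5 values of the genes and lists named here, 22 (5.05%) held an array whose gap to its nearest neighbour, over the group's whole range, was above Dixon's 95% critical value for 5 samples. Chance flags about 1 in 20 groups, which is the share found here. Of the 22, 16 were in the control group and 6 in the saline group, and no explanation was tested.

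In the saline group, Penk was lowest in array 3 at 1.16 (next 2.14), Itgb6 lowest in array 4 at -3.71, and Sod2 lowest in array 4 at 0.967. Saline array 5 was highest for Junb (2.47) and for Igf1r (-1.94), and lowest for the mean of prostaglandin and leukotriene genes (-2.61).

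In the control group, array 4 was lowest for Acan (-5.34), Alox12 (-8.12), Dusp1 (-1.60), Il1a (-6.83) and Plat (1.77) and highest for Glul (3.39). Control array 2 was highest for Actb (5.67), Fcgr3a (-2.18), Tnfrsf1b (-3.68) and the mean of the proton pump (3.12). Control array 1 was highest for Gpnmb (-1.51) and Nfkbia (1.16) and lowest for Slc14a1 (-5.07) and the mean of JAK and STAT genes (-2.87). Control array 3 was highest for the mean of myeloid transcription factors (-4.06), and control array 5 for Rrm1 (-2.74, next -4.20), which did not pass the test.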

How the results depend on the processing

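Of the 148 called genes named here, none that an alternative tested changed sign under it; reversals were not counted over all calls. Genes higher by at least 2-fold numbered 502 and lower 24 with normexp. Lower genes numbered 4888 with median scaling and 5133 with array weights, with 72 and 121 at least 2-fold lower. Within slide 1, 973 were lower, and within slide 2 (2 arrays a group) the 4 counts were 0, 1, 0 and 1 (2455 genes at an unadjusted p under 0.05). Leaving out 1 array at a time gave 2050 to 3614 higher, 1154 to 3990 lower, 714 to 1125 at least 2-fold higher and 29 to 100 at least 2-fold lower. Without saline arrays 1 and 5, 4992 were lower, 1373 at least 2-fold higher and 231 at least 2-fold lower. The causes were not tested. Of the 5581 calls, 78.8% were shared with normexp, 90.2% with median scaling, 99.9% with slide as a block and 49.1% within slide 1.

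The replicate numbers were checked for pairing: the correlations of same-numbered arrays' deviations were -0.05, 0.18, 0.01, 0.11 and 0.17, and 1 of 5 saline arrays correlated best with its own number, so the numbers were not taken as pairs. With the replicate block 2151 genes were higher and 1058 lower, and 12 of the 148 named calls did not pass (Atf6, Atp6v0d1, Batf3, Cartpt, Cntfr, Evl, Irs2, Keap1, Klf9, Mt1, Ndufs3 and Vcan; adjusted p = 0.0990 at most). Falls became 1 of 30 in respiration, 0 in glycolysis, 1 in the proton pump and in astrocyte homeostasis, 3 in transmitter release and in ion pumps, 2 in the neuronal cytoskeleton and 4 in axon guidance and in neurotrophic factors, and rises 2 in the insulin-like growth factor, immature neural and perineuronal net lists.

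Of 148 called genes named here, 139 kept the call when any 1 array was left out and 9 did not, and 3 (Acan, Atf6, Il1rl1) lost it with normexp. List medians kept their sign within slide 1 in 40 of 42 lists (not the proteasome or glucocorticoid targets), within slide 2 in 42, and with median scaling in 39 (not Nrf2 targets, immature neural cells or the proteasome). In the lysosome, interleukin 1, tumour necrosis factor, S100, prostaglandin, endoplasmic reticulum and proteasome lists, which had no fall, 1 member was lower without saline array 1, 4 or 5.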
